A study of Mus musculus with 6 samples.

Results

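The genes described here are the ephrins and their Eph receptors, the Slits and their Robo receptors, and the netrins with DCC, neogenin and the UNC5 receptors. A member is any row of the deposited table whose GENCODE symbol is in a fixed list of 40 genes, and all 40 were found among the 55416 genes of the table. They comprise 24 receptors and 16 ligands. The RNA came from mouse (Mus musculus) primary neurons of wild-type genotype, that is, neurons taken from the animal and grown in culture, infected with AAV, an adeno-associated viral vector. For 3 libraries this was AAV-hsyn-miR-9-3p, in which the human synapsin promoter, active in neurons, drives the microRNA strand miR-9-3p. The other 3 libraries had a control virus, called a scramble vector in the titles and treatment labels and AAV-hsyn-mCherry in the extraction protocol. The groups are named control AAV and miR-9-3p AAV. The part of the nervous system, the age of the animals, the time after infection and the number of cultures are not given in the sources used here. The p-values therefore reflect how much these 6 libraries vary, a variation that may be technical.

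Axon guidance rests on ligands that attract or repel the growth cone through receptors on its surface. Ephrins stay on the cell that makes them, the A class by a lipid anchor and the B class by a membrane-spanning domain, and they act on Eph receptor tyrosine kinases of cells in contact, often as repellents. Slits are secreted and repel growth cones that carry Robo receptors. Netrin-1 attracts through DCC and repels through UNC5 receptors, while neogenin, the relative of DCC, also binds repulsive guidance molecules (RGMs). The netrin-Gs are lipid-anchored surface proteins that bind the netrin-G ligands at synapses and do not act through DCC. After axons have reached their targets many of these genes stay in use in dendritic spines and synapses.

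The comparison asks how these genes differ between neurons that received miR-9-3p and neurons that received the control virus. MicroRNAs act through their seed, positions 2 to 8 from the 5′ end, which pairs with 3′ untranslated regions (UTRs) of messenger RNAs. The microRNA that the virus carried and the strand that its natural hairpin also yields are shown with the seed in capitals, from RefSeq on GRCm38.p6, since the UTR matches described further on are complements of these seeds.
miR-9-3p: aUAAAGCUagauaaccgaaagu
miR-9-5p: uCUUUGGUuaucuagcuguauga
Both strands are encoded at 3 loci, and the miR-9-3p strand lies at chr3:88215652-88215673, chr7:79505318-79505339 and chr13:83738858-83738879, each on the plus strand. The level of the mature microRNA was not analysed here.

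Values are FPKM, fragments scaled to gene length and to the size of the library, so levels of different genes can be compared per length. The number of reads behind a library, read from the size of 1 read in its FPKM values, was 16001205 at the lowest and 17936453 at the highest. Neuron markers were abundant in every library: the summed level of 10 markers, among them Map2, Tubb3, Snap25 and Gad1, ran from 762 to 1223 FPKM in control AAV and from 1084 to 1381 FPKM in miR-9-3p AAV. Transcripts of lung cells were present in all 6 libraries and uneven within groups. The lung level, defined as the median log2(FPKM + 1) of 10 alveolar type 2 genes, was 4.33, 5.03 and 6.62 in libraries 1, 2 and 3 of control AAV and 4.798, 3.43 and 3.24 in those of miR-9-3p AAV. By a second lung marker pair (Bpifa1 as a share of Scgb1a1) the libraries fall into a set of control AAV 2 and 3 with miR-9-3p AAV 1 and a set of control AAV 1 with miR-9-3p AAV 2 and 3. Marker genes of other brain cells also differed. The summed level of 10 astrocyte markers was 484 to 576 FPKM in control AAV and 353 to 393 FPKM in miR-9-3p AAV, and none of these was at 0 throughout. The astrocyte markers did not move together: by log2 fold change 7 were lower and 3 higher. Of those higher, Slc1a3 and Slc1a2 had groups that did not overlap, and the same held for all 7 that were lower. The 10 oligodendrocyte lineage markers were mixed, with 7 lower and 3 higher by log2 fold change. Among them Pdgfra was called higher and 1 other marker lower. Their sum, most of it Olig1 and Olig2, was 324 to 515 FPKM in control AAV and 216 to 323 FPKM in miR-9-3p AAV, with none at 0 throughout. In bulk RNA, fewer cells of a type and less RNA per cell cannot be told apart.

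Receptors, and no ligands, were called higher in miR-9-3p AAV. Of 22 tested receptors 8 were higher and 0 lower, and of 16 tested ligands 0 were higher and 0 lower. Here called means a Benjamini-Hochberg adjusted p under 0.05 in limma over all 14229 genes tested, of which 3.89% were called higher and 2.4% lower. A gene was tested if it reached 1 FPKM in at least 3 libraries, which 38 of the 40 members did. The median log2 fold change was 0.44 for the receptors, -0.0044 for the ligands and -0.02 for all genes tested. The difference between receptors and ligands was not itself tested, and 3 ligands had an unadjusted p under 0.05 in the higher direction and 1 in the lower. At that unadjusted threshold 10 receptors were higher and 1 lower, against 14% and 12.8% of all genes tested. Groups did not overlap for 15 members that were higher and 4 that were lower, against 18.2% and 16.7% of all genes tested.

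The calls depended on single libraries. Without control AAV library 1 or 2, or without any single miR-9-3p AAV library, 0 genes passed limma, members included, while 2646 to 3588 genes had an unadjusted p under 0.05, among them 9 to 18 members that were higher. Without control AAV library 3 the calls were 7 members, all but Epha4. With voom on the whole reads the same 8 members were called, where 3.84% of all genes were called higher and 3.01% lower. With array quality weights 24 members were called higher and 5 lower, where 22.4% and 22.9% of all genes were. The lowest log2 fold change of the 8 receptors with a single library left out was 0.38, for Epha4. With the exon length trend removed, as described further on, 2 members were called.

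The netrin receptor family had the most calls, with 4 of 6 genes higher. Neo1, which encodes neogenin, had 24.8, 25.3 and 22.5 FPKM with control AAV and 38.6, 40.3 and 39.8 FPKM with miR-9-3p AAV, where values are given throughout in the order of libraries 1, 2 and 3. All 3 miR-9-3p libraries lay far above all 3 control libraries. The means were 24.2 ± 1.504 and 39.6 ± 0.895 FPKM (SD, n = 3 per group). The log2 fold change was 0.69, its standard error (SE) 0.08 and its adjusted p in limma 0.0204. Neo1 (ENSMUSG00000032340, chromosome 9, 58874687 to 59036441, minus strand, GRCm38) was also the most abundant receptor of the 24, and it made up 52.7% of the summed netrin receptor level in control AAV and 54.7% in miR-9-3p AAV.

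Dcc, the attractive netrin receptor, stood at 3.34, 3.69 and 3.85 FPKM in control AAV against 6.42, 5.74 and 5.62 FPKM with miR-9-3p AAV. The groups did not overlap, with means of 3.62 ± 0.261 and 5.93 ± 0.435 FPKM (SD, n = 3) and a log2 fold change of 0.58 (limma adjusted p = 0.0279, SE 0.09). Unc5c, a repulsive netrin receptor, went from 2.60, 2.71 and 2.91 FPKM to 4.47, 4.20 and 3.96 FPKM. The log2 fold change of Unc5c was 0.48 (limma adjusted p = 0.037, SE 0.09). Unc5d, which also binds the FLRT adhesion proteins and is known from migrating cortical neurons, went from 6.64, 7.33 and 7.03 FPKM to 9.90, 9.72 and 9.76 FPKM. Its 3 miR-9-3p values lay closer together than those of any other called receptor relative to their mean, at 9.79 ± 0.0900 FPKM against 6.998 ± 0.348 FPKM (SD, n = 3), with a log2 fold change of 0.43 (limma adjusted p = 0.0323, SE 0.08).

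The other UNC5 receptors did not pass. Unc5a stood at 10.02, 6.05 and 3.99 FPKM in control AAV against 7.45, 12.3 and 11.95 FPKM with miR-9-3p AAV, so the groups overlapped and each spanned a wide range (log2 fold change 0.64, limma adjusted p = 0.251, SE 0.32). Unc5b, best known from blood vessels, had means of 1.69 and 2.39 FPKM and a log2 fold change of 0.31 (limma adjusted p = 0.322). Summed over the 6 genes, the netrin receptor level was 49.3, 46.5 and 42.0 FPKM in control AAV and 68.4, 74.8 and 74.2 FPKM in miR-9-3p AAV, a ratio of means of 1.58.

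Among the Robo receptors Robo1 had the highest fold change of the 8 called members. It stood at 5.15, 5.28 and 5.36 FPKM in control AAV against 9.16, 9.72 and 10.6 FPKM with miR-9-3p AAV. The control values were nearly equal and every miR-9-3p value was well above them, at means of 5.26 ± 0.103 and 9.82 ± 0.706 FPKM (SD, n = 3) and a log2 fold change of 0.79 (limma adjusted p = 0.017, SE 0.08). Robo2, the other Robo of brain neurons, stood at 10.5, 11.2 and 11.4 FPKM in control AAV against 13.1, 12.6 and 11.3 FPKM with miR-9-3p AAV. These groups overlapped, and the log2 fold change of 0.15 did not pass (limma adjusted p = 0.324, SE 0.09). On average Robo1 made up 28.3% of the summed Robo level in control AAV and 42.7% in miR-9-3p AAV, and Robo2 59.2% and 53.5%. The sum includes Robo4, which varied with the lung level, as described further on, and stood at 4.73 FPKM in control AAV library 3. In that library the shares of Robo1 and Robo2 were 24.8% and 53.0%. Robo3, a Robo of commissural axons, lay between 0.0658 and 0.228 FPKM, on 8 to 25 reads, and was not tested.

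Among 13 tested Eph receptors 3 were called, all of the A class. Epha5 was the most abundant Eph receptor, at 10.5, 11.9 and 11.7 FPKM in control AAV and 17.4, 16.4 and 16.2 FPKM in miR-9-3p AAV. The groups were well apart, with means of 11.3 ± 0.760 and 16.7 ± 0.676 FPKM (SD, n = 3) and a log2 fold change of 0.52 (limma adjusted p = 0.0295, SE 0.08). Epha6 went from 2.03, 1.99 and 2.29 FPKM to 3.47, 3.84 and 3.34 FPKM, a log2 fold change of 0.55 (limma adjusted p = 0.0326, SE 0.10). Epha4, which binds ephrins of both classes, went from 6.64, 7.93 and 7.45 FPKM to 10.05, 10.6 and 10.2 FPKM, with a log2 fold change of 0.44 (limma adjusted p = 0.0429, SE 0.09). Beside these calls, 2 of 10 neuron markers (Map2 and Dcx) were called higher and 2 of 10 astrocyte markers lower. By log2 fold change the 10 neuron markers were mixed, with 7 higher, 3 lower and a median of 0.12. The part of these markers in the receptor values was not tested. In each of Epha4, Epha5 and Epha6 the lowest miR-9-3p library exceeded the highest control library.

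**Figure D1:**
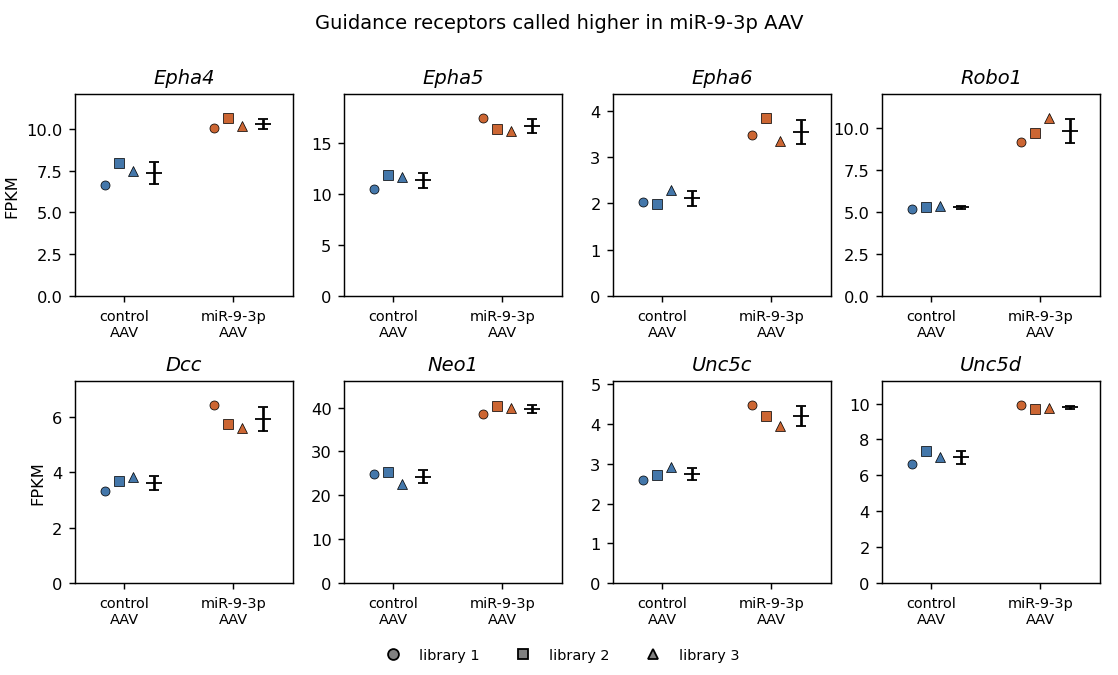
FPKM (y axes, from 0) of the 8 receptors called higher, per library; circles, squares and triangles are libraries 1, 2 and 3 of each group, and bars give the mean and SD (n = 3). The groups do not overlap in any of the 8 panels, as in Neo1, where control AAV lies between 22.5 and 25.3 FPKM and miR-9-3p AAV between 38.6 and 40.3 FPKM.

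Of the other A-class receptors, Epha8 had a log2 fold change of FPKM + 1 close to that of Robo1 but a wider spread. It stood at 2.002, 1.01 and 0.837 FPKM in control AAV and 2.24, 2.52 and 3.80 FPKM in miR-9-3p AAV (log2 fold change 0.77, limma adjusted p = 0.105, SE 0.24). The highest control and the lowest miR-9-3p library of Epha8 were close together. With 0.1 in place of 1 added to FPKM, the log2 fold change was 1.15 for Epha8 and 0.88 for Robo1. Epha7 had means of 5.17 ± 0.605 and 6.22 ± 0.0764 FPKM (SD, n = 3), with 0.23 as the log2 fold change (limma adjusted p = 0.193) and groups that did not overlap. Epha3 (log2 fold change 0.10) and Epha10, a receptor with an inactive kinase domain (0.28), had overlapping groups and did not pass. Epha1 stayed under 1 FPKM in 5 of 6 libraries and was not tested.

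None of the 5 B-class receptors was called. Ephb1 stood at 5.18, 4.20 and 3.13 FPKM in control AAV and 5.70, 7.46 and 7.64 FPKM in miR-9-3p AAV (log2 fold change 0.63, limma adjusted p = 0.0859, SE 0.18). The groups of Ephb1 did not overlap but the nearest libraries were close. Ephb2, a receptor at excitatory synapses, and Ephb6, whose kinase domain is inactive, had log2 fold changes of 0.29 and 0.51 with overlapping groups. Ephb3 had means of 4.75 ± 0.339 and 3.71 ± 0.649 FPKM (SD, n = 3) and a log2 fold change of -0.29 (limma adjusted p = 0.196), again without overlap. Summed over the class, EphA receptors stood at 35.8, 36.2 and 38.6 FPKM in control AAV and 48.9, 47.8 and 48.4 FPKM in miR-9-3p AAV. The EphB sums of 29.4, 25.4 and 27.1 FPKM and 25.3, 31.0 and 32.6 FPKM overlapped between groups. They include Ephb4, which varied with the lung level, as described further on. Ephb4 was 10.1 FPKM in control AAV library 3 and 1.83 FPKM in miR-9-3p AAV library 3.

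**Figure D2:**
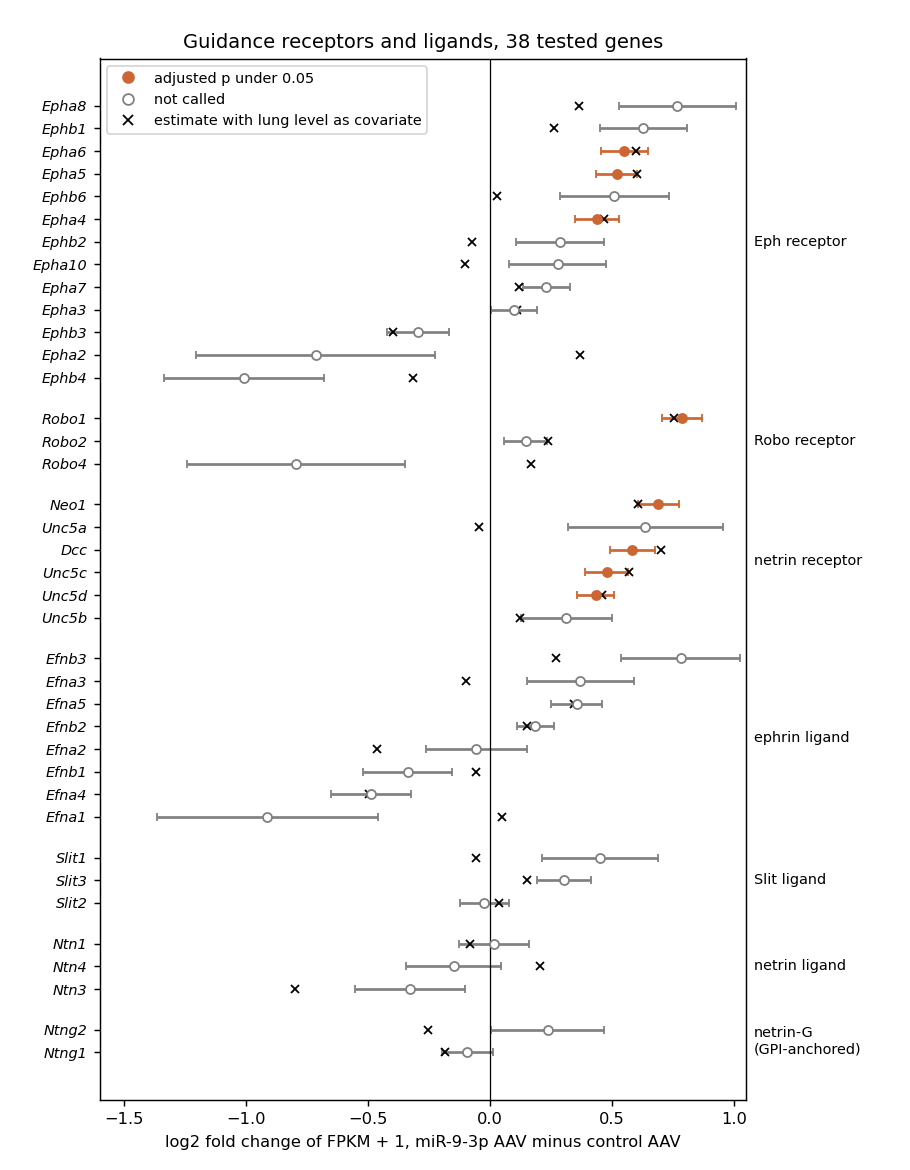
Log2 fold change of FPKM + 1 (x axis, miR-9-3p AAV minus control AAV) of the 38 tested members by family; circles with bars are limma estimates with SE, filled where the adjusted p was under 0.05, and crosses are estimates with lung level as covariate. The 8 filled circles are all receptors, and the crosses of Epha2, Ephb4, Robo4 and Efna1 lie far from their circles.

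Among the ligands, Efnb3, the ephrin of the midline and of cortical neurons, was the most abundant member of the whole set. It stood at 66.7, 53.4 and 36.4 FPKM in control AAV against 72.9, 86.9 and 107 FPKM with miR-9-3p AAV. The groups did not overlap, but the values spread widely within each, at 52.2 ± 15.2 and 88.8 ± 16.9 FPKM (SD, n = 3), and the log2 fold change of 0.78 did not pass (limma adjusted p = 0.107, SE 0.24). Efnb2, a ligand of EphA4 and of EphB receptors, stood at 23.9, 23.8 and 24.2 FPKM in control AAV and 25.9, 28.0 and 28.4 FPKM in miR-9-3p AAV. Its groups were close but did not overlap (log2 fold change 0.19, limma adjusted p = 0.188, SE 0.08). Efnb1 had 13.5, 13.05 and 21.2 FPKM with control AAV against 11.9, 11.8 and 12.4 FPKM with miR-9-3p AAV, without overlap and with control AAV library 3 far above the rest (log2 fold change -0.34, limma adjusted p = 0.28).

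The A-class ephrins were mixed. Efna5, a repellent that patterns topographic projections, stood at 3.38, 3.57 and 3.86 FPKM in control AAV and 4.38, 4.77 and 5.54 FPKM in miR-9-3p AAV (log2 fold change 0.35, limma adjusted p = 0.096, SE 0.10). Efna4 had 1.37, 2.27 and 1.69 FPKM with control AAV against 0.874, 0.812 and 1.22 FPKM with miR-9-3p AAV (log2 fold change -0.49, limma adjusted p = 0.123, SE 0.16), on 22 to 65 reads. In neither gene did the groups overlap. Efna2 and Efna3 had log2 fold changes of -0.06 and 0.37 with overlapping groups. Of the exon bases 10.5% in Efna4 and 14.1% in Efna3 lie opposite another gene, of 0.186 and 0.580 FPKM on average, and without a known strand setting reads there cannot be told apart.

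Slits, netrins and netrin-Gs were not called either. Slit3 stood at 3.57, 2.90 and 2.75 FPKM in control AAV and 3.71, 4.27 and 4.05 FPKM in miR-9-3p AAV (log2 fold change 0.30, limma adjusted p = 0.146, SE 0.11), without overlap. Slit1, the most abundant Slit, had overlapping groups at 12.6 ± 3.55 and 17.3 ± 3.43 FPKM (SD, n = 3), with 0.45 as its log2 fold change (limma adjusted p = 0.27). Slit2 had means of 2.44 and 2.37 FPKM, a log2 fold change of -0.03 with an SE of 0.10. Ntn1, the attractant that signals through DCC, had means of 7.92 ± 0.887 and 8.06 ± 1.41 FPKM (SD, n = 3) and a log2 fold change of 0.02 with an SE of 0.14. Ntn3 and Ntn4 had log2 fold changes of -0.33 (limma adjusted p = 0.377) and -0.15 (0.653). Ntng2 had 17.4, 13.7 and 10.4 FPKM with control AAV against 12.1, 18.7 and 18.5 FPKM with miR-9-3p AAV, with overlapping groups, 2 miR-9-3p libraries above all controls and library 1 within their range (log2 fold change 0.24, limma adjusted p = 0.543, SE 0.23), and 14.0% of its exon bases are shared with a gene on the same strand. Ntng1 had a log2 fold change of -0.09 (limma adjusted p = 0.591).

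Several members varied with the lung level within the groups. Ephb4 and Robo4, receptors of the vascular endothelium, and Epha2 and Efna1, common in epithelia and vessels, were highest in control AAV library 3, which had the highest lung level. Ephb4 stood at 3.88, 4.48 and 10.1 FPKM in control AAV against 3.07, 2.16 and 1.83 FPKM with miR-9-3p AAV, without overlap (log2 fold change -1.01, limma adjusted p = 0.115, SE 0.33). Efna1 had 3.04, 3.23 and 11.1 FPKM with control AAV against 3.25, 1.87 and 1.55 FPKM with miR-9-3p AAV (log2 fold change -0.91, limma adjusted p = 0.247, SE 0.45). Robo4 had 1.06, 1.24 and 4.73 FPKM with control AAV against 1.53, 0.423 and 0.400 FPKM with miR-9-3p AAV (log2 fold change -0.80, limma adjusted p = 0.293, SE 0.45). The groups of Efna1 and Robo4 overlapped, and in all of these genes control AAV library 3 was far above the next control library. The summed level of 10 endothelial markers ran from 61.9 to 276 FPKM in control AAV and from 21.2 to 76.4 FPKM in miR-9-3p AAV. All 10 reached 1 FPKM in some library and none was at 0 throughout. With lung level as covariate the log2 fold changes became -0.32 for Ephb4, 0.05 for Efna1, 0.17 for Robo4 and 0.37 for Epha2, with limma adjusted p-values of 0.165, 0.883, 0.52 and 0.0939.

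Efnb3, Slit1, Unc5a and Ephb1 varied the other way, with their lowest control value in library 3 and their lowest miR-9-3p value in library 1, the libraries of highest lung level in each group. Efnb3 made up 49.8%, 45.9% and 32.7% of the summed ephrin level in control AAV and 54.0%, 56.1% and 59.4% in miR-9-3p AAV. The log2 fold changes with lung level as covariate were 0.27 for Efnb3, -0.06 for Slit1, -0.05 for Unc5a and 0.26 for Ephb1 (limma adjusted p 0.101, 0.632, 0.823 and 0.0555). The part of lung RNA in these values was not tested.

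**Figure D3:**
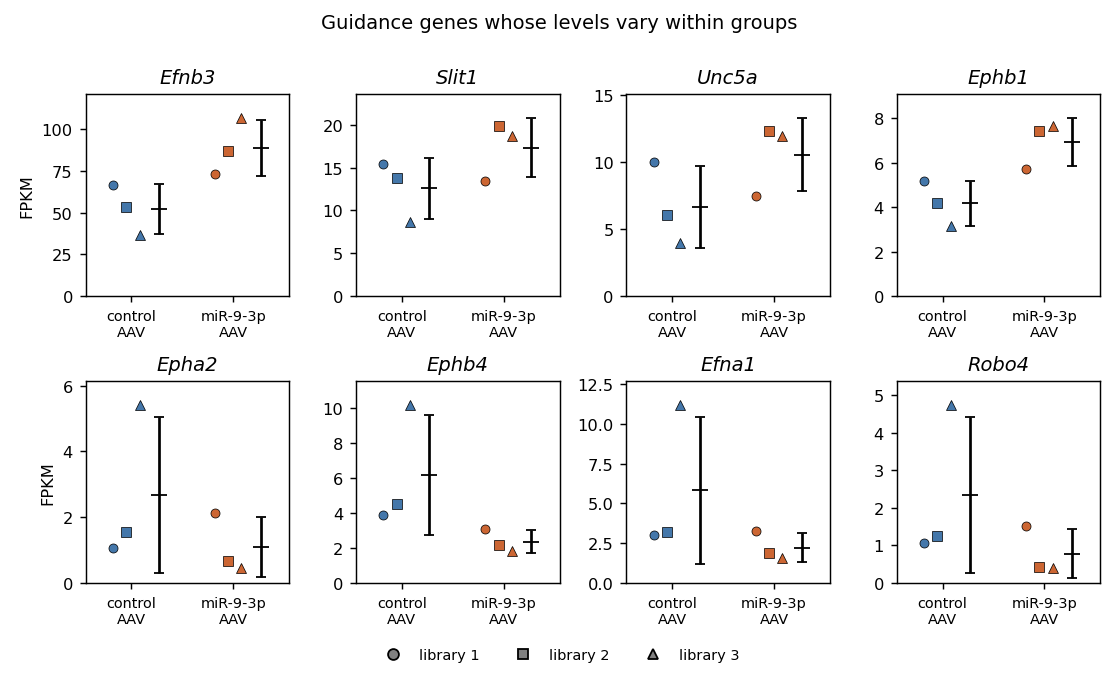
FPKM (y axes, from 0) per library of 8 members that vary within groups, picked after their values were seen; circles, squares and triangles are libraries 1, 2 and 3, and bars give the mean and SD (n = 3). Control AAV library 3 is the lowest control library in the upper row and the highest in the lower row, where Ephb4 reaches 10.1 FPKM.

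With the library of highest lung level left out of each group together, all 8 called receptors stayed called, where 5.92% of all genes were called higher and 6.61% lower. They also did so with lung level as covariate, where 13.2% of all genes were called higher and 17.8% lower. Within the set of control AAV 2 and 3 against miR-9-3p AAV 1, the log2 differences were 0.69 for Robo1, 0.67 for Neo1, 0.64 for Dcc, 0.53 for Epha5, 0.52 for Unc5c, 0.51 for Epha6, 0.41 for Unc5d and 0.35 for Epha4. Within the set of control AAV 1 against miR-9-3p AAV 2 and 3 they were 0.86, 0.67, 0.62, 0.59, 0.50, 0.60, 0.49 and 0.58 in the same order. Since the groups of these genes do not overlap, their sign was fixed beforehand, and the values serve only to show the sizes. The differences were not tested within a set, where each rests on 3 libraries, but in the fit with the set as a batch all 8 stayed called, where 9.91% of all genes were called higher and 8.74% lower. With the covariate 2 ligands were called lower, Ntn3 (log2 fold change -0.80, limma adjusted p = 0.00686) and Efna2 (-0.47, limma adjusted p = 0.0368). Of the exon bases of Ntn3 1.74% are shared with a gene on the same strand, of 20.6 FPKM on average.

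**Figure D4:**
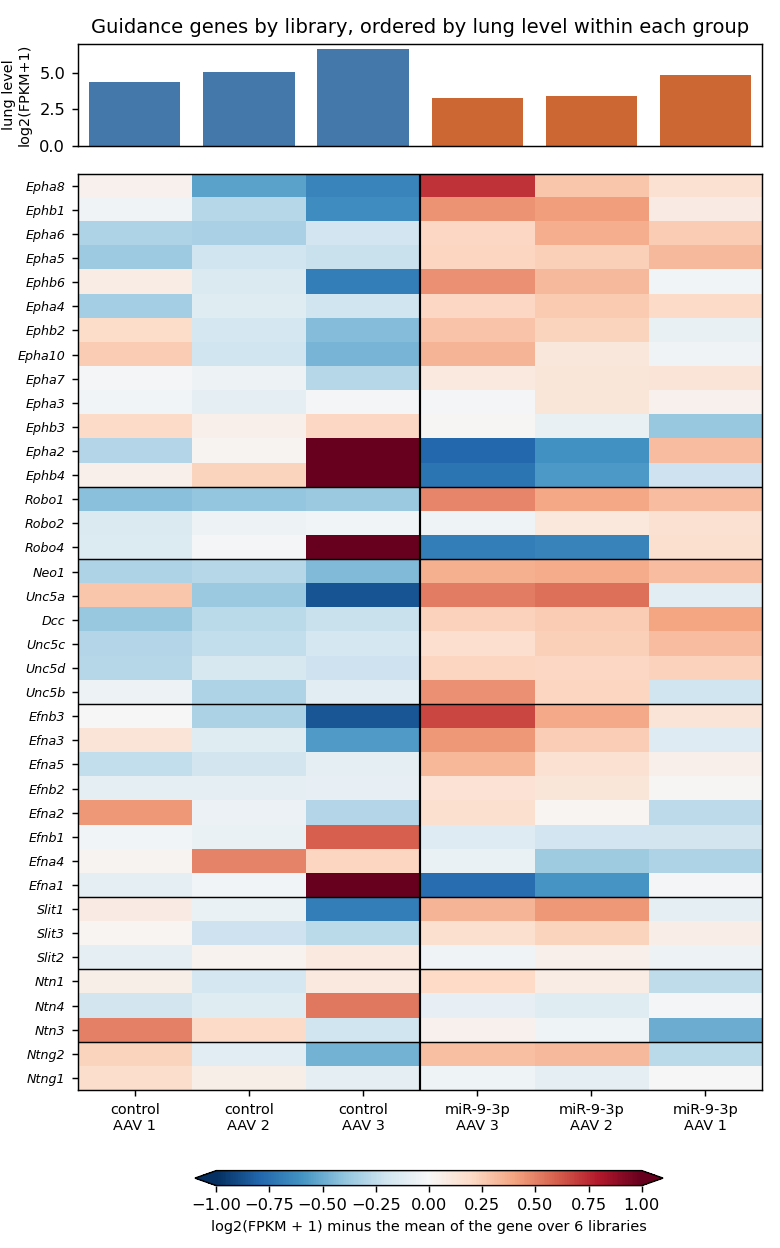
Deviation of log2(FPKM + 1) from the mean of each gene over 6 libraries (colour, limited to -1 to 1) for the 38 tested members, with libraries ordered by lung level within each group and the lung level as bars above. Robo1, Neo1, Dcc, Unc5c, Unc5d and Epha4 to Epha6 change colour between groups, whereas Ephb4, Robo4, Epha2 and Efna1 stand out in control AAV library 3, where the lung level is 6.62.

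The called receptors had exon lengths above the median of all genes tested, and fold changes across all genes were higher at greater exon length. Exon length here is the number of bases covered by all annotated exons of a gene, not the length of a single transcript. The exon length of the 8 genes ran from 5289 bases for Epha6 to 19135 bases for Unc5c, against a median of 4127 bases for all genes tested, 7629 for the tested receptors and 4011 for the ligands. Across all tested genes the log2 fold change had a Spearman rho of 0.27 with exon length, as a description over genes, which share libraries. With the length trend of each library removed, where 1.98% of all genes were called higher and 1.44% lower, 2 of the 8 receptors stayed called, Neo1 (log2 fold change 0.56, limma adjusted p = 0.0362) and Epha6 (0.54, 0.0413). The values of the other 6 were 0.51 for Robo1, 0.35 for Dcc, 0.32 for Epha4, 0.29 for Unc5d, 0.24 for Epha5 and 0.16 for Unc5c, with limma adjusted p-values of 0.0563, 0.0626, 0.0957, 0.0865, 0.126 and 0.248. The median over the tested receptors was then 0.25, against 0.02 for the ligands and -0.02 for all genes. The fit with the length trend removed also left out the intensity trend of limma. Leaving out the intensity trend alone gave 7 called members, all but Epha4, where 519 of all genes were called higher and 325 lower.

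**Figure D5:**
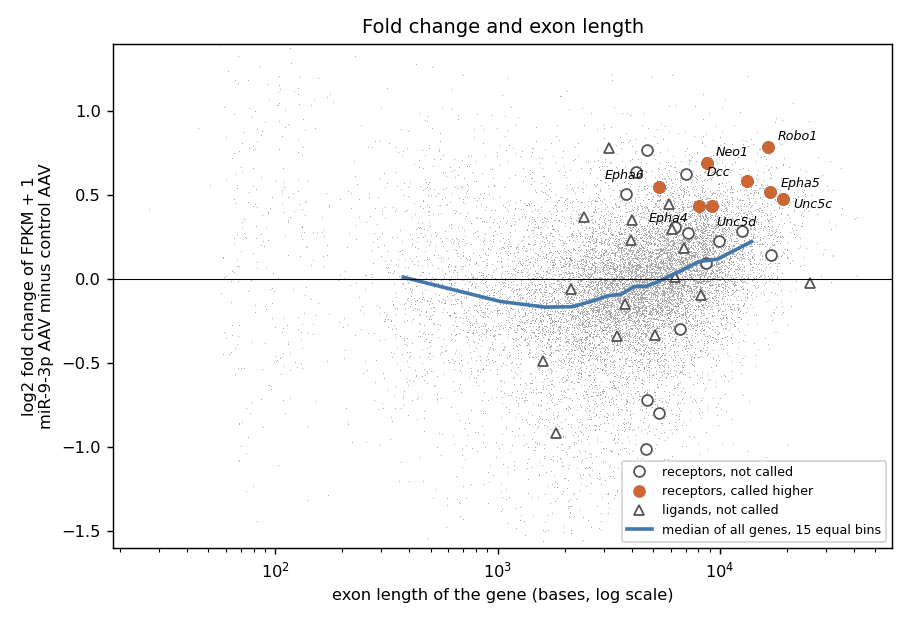
Log2 fold change of FPKM + 1 (y axis, miR-9-3p AAV minus control AAV) against exon length (x axis, bases, log scale); grey dots are all tested genes with a length, circles are receptors, triangles ligands, filled symbols called genes, and the line joins medians of 15 bins of equal gene number. The line falls from 0.01 in the bin of shortest genes to -0.17, then rises to 0.22 in the bin of longest genes. The 8 called receptors lie above it, and 42 genes fall outside the plotted range.

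The longest annotated 3′ UTR (GENCODE M21, GRCm38) of each member was searched on its sense strand for the complement of the miR-9-3p seed, AGCTTTA, or of positions 2 to 7 followed by A, GCTTTAA. These motifs overlap, and both together form the 8-base match AGCTTTAA. Of 40 members 8, or 20%, held at least 1 such match, against 21.2% of 12200 tested genes with a 3′ UTR. They were Epha7, Efna5, Efnb2, Slit2, Robo2, Ntng1, Unc5c and Dcc. Dcc had the most, 3 matches, of which 1 was of 8 bases. The sites of the other members are shown with the match in capitals, since these are the stretches of the guidance messages complementary to the seed of the virus-borne strand.
Efna5, chr17:62605691-62605720, minus strand: ggggtgtcgggAGCTTTAAaccccaaagcc
Unc5c, chr3:141834450-141834478, plus strand: cccagctttctGCTTTAAaaaaaaaaaaa
Epha7, chr4:28966859-28966887, plus strand: atggcctccttGCTTTAAtacagccgcct
Efnb2, chr8:8619051-8619079, minus strand: cagcgcttagtGCTTTAAaaagtgaaaga
Robo2, chr16:73895038-73895066, minus strand: tgtactaacttGCTTTAAaaatattatta
Ntng1, chr3:109781679-109781707, minus strand: tttttcttgttGCTTTAAcactggaagat
Slit2, first site, chr5:48305069-48305097, plus strand: tgtttcttgatGCTTTAAtatatattaat
Slit2, second site, chr5:48307401-48307429, plus strand: aaagtatatgaAGCTTTAtgtaaggtatt

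Of the 8 members with a match, Dcc and Unc5c were called higher in miR-9-3p AAV and 0 were called lower. The log2 fold changes of the others were 0.35 for Efna5, 0.23 for Epha7, 0.19 for Efnb2, 0.15 for Robo2, -0.03 for Slit2 and -0.09 for Ntng1. The median of all 8 was 0.21, against 0.29 for the 30 tested members without a match. Over all genes tested the medians were 0.07 for 2584 genes with a match and -0.06 for 9616 without. These medians were not adjusted for length, and fold changes were higher at greater exon length. The part of length in them was not tested. For miR-9-5p, with ACCAAAG or CCAAAGA as the match, 16 of 40 members (40%) held a match, against 25.7% of the tested genes, and their median was 0.28 against 0.27 for the 22 tested members without. These shares were not adjusted for UTR length either. Of 9419 tested genes with a UTR in the length range of the 8 called receptors, 24.4% held a miR-9-3p match and 29.9% a miR-9-5p match. Of the called receptors 25% and 50% did. The length range ran from 537 to 6352 bases, so it did not match these genes to the receptors in UTR length. A match is a description of the letters in the UTR, not a measured site.

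Other genes of the same pathways were read from a list of 78 partners, adaptors and effectors, of which 77 were tested. Of these 8 were called higher and 4 lower, with a median log2 fold change of 0.11 against -0.02 for all genes tested. These calls too were lost, to 0, in each of the 5 fits with 0 called genes given above. Among 19 surface partners and co-receptors 4 were higher and 0 lower. Flrt2, an adhesion protein that binds UNC5 receptors, went from 9.65 ± 0.395 to 15.2 ± 1.09 FPKM (SD, n = 3), which is a log2 fold change of 0.60 (limma adjusted p = 0.0244). Draxin, a secreted repellent that binds DCC, went from 3.27 ± 0.474 to 6.47 ± 0.959 FPKM (SD, n = 3), with 0.80 as its log2 fold change (limma adjusted p = 0.0309). Cdon, a Hedgehog co-receptor of the immunoglobulin family, and Adgrl3, a latrophilin that binds FLRT proteins, had log2 fold changes of 0.55 and 0.47 (limma adjusted p = 0.0384 and 0.0299). Rgma and Rgmb, ligands of neogenin, had log2 fold changes of 0.03 and -0.06, and Lrrc4c and Lrrc4, partners of the netrin-Gs, of 0.06 and 0.0050, none of which passed.

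Inside the cell, calls went in both directions. Among 25 adaptors and kinases Abl2, a cytoskeletal tyrosine kinase, rose by 0.53 (limma adjusted p = 0.0274). Inppl1, the lipid phosphatase SHIP2 that binds EphA2, fell by 0.75 (0.0185), from 8.14 ± 0.391 to 4.45 ± 0.275 FPKM (SD, n = 3). Among 15 actin regulators the paralogs Enah and Vasp, which promote filament growth at the leading edge, went in opposite directions, with log2 fold changes of 0.40 (limma adjusted p = 0.0372) and -0.63 (0.0435). Enah has 21452 exon bases and Vasp 2617. With the exon length trend removed Flrt2, Draxin and Inppl1 stayed called, and Cdon, Adgrl3, Abl2, Enah and Vasp did not.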

How the data were processed

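The expression levels are FPKM, as computed and deposited by the authors in a single table with a column for each of the 6 libraries. The submitters' processing notes name HISAT2, Cufflinks 2.2.1 and mm10, without saying what each did. Which annotation and strand setting were used is not given in the sources used here. Reads of antisense partners cannot be told apart. Of 55416 identifiers, 52135 matched a gene of GENCODE M21 (GRCm38), which gave symbols, exon lengths and UTRs.

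FPKM times exon length gave whole reads, within 0.01, for 98.1% of values above 0 in each library, which set the depths. FPKM values were tested as log2(FPKM + 1), a scale on which changes of weakly expressed genes appear smaller, by limma 3.58.1 (R 4.3.3) (empirical Bayes with intensity trend, no covariates). The members and lists were chosen with earlier results of these data known. Text values follow this rule: each called member, members with an unadjusted p under 0.05 and groups that do not overlap, the 3 most abundant ligands and receptors, the 3 largest uncalled fold changes, and called genes of the pathway list, of which 1 group is not reported here. Ntn3, Unc5a, the RGM genes and any other gene named were picked with their values in view. The fit was tested on simulated data with independent noise for each gene. Those data held no lung or length pattern, so the test does not cover such effects. The seed search was tested on matches planted in random sequence. Replicates differed by more than sampling noise in every pair within a group (lowest chi-square per degree of freedom 3.93).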

Additional observations from a re-analysis of the deposited data

How the results depend on the processing

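Against 8 members higher and 0 lower, the counts were 2 and 0 with no filter, 2 and 0 with the exon length trend removed, 24 and 5 with array quality weights (gene-by-gene algorithm, chosen after the default one did not converge), 8 and 2 with lung level as covariate, and 11 and 2 leaving out, in each group, the library of highest lung level. With each library left out they were 0 to 7 higher and 0 lower. On whole reads with voom, 8 members were higher and 0 lower, among 541 and 425 of all genes. Against 8 higher and 4 lower of the other pathway genes, the counts were 1 and 1 with no filter, 2 higher with the length trend removed, 27 and 14 with array quality weights, 14 and 17 with lung level as covariate, 1 lower with quantile normalization, 7 lower with the lung set as a batch, and 0 to 9 higher and 0 to 2 lower when each library was left out. These counts stand beside 554 higher and 341 lower of all genes in the reported fit, 109 and 67 with no filter, 279 and 203 with the length trend removed, 3183 and 3262 with array quality weights, 1885 and 2530 with lung level as covariate, 792 and 885 leaving out the highest lung libraries, 591 and 266 with quantile normalization and 1410 and 1243 with the lung set as a batch. With 8-base matches only, 2 members had a match for miR-9-3p and 3 for miR-9-5p.

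With the replicate number as a block 0 members and 0 other pathway genes were called in either direction, 0 of all genes passed limma, 2213 genes had an unadjusted p under 0.05, and 11 members were higher and 1 lower at an unadjusted p under 0.05. Same-numbered libraries had correlations of their deviations from the group means of -0.65, 0.11 and -0.54. With a single best partner looked up per replicate number, none was the library of the same number. Since the lung level was uneven within groups and can shape these deviations, the check cannot decide whether the numbers pair the libraries.

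The 8 called receptors kept their direction in every alternative. Since their groups do not overlap, this was fixed beforehand in many of these fits. These are the fits with libraries left out, or with another filter, pseudocount, array weights, replicate block or intensity trend. Some uncalled members changed sign. With lung level as covariate the log2 fold changes were Epha2 0.37, Epha10 -0.10, Ephb2 -0.074, Efna1 0.049, Efna3 -0.10, Slit1 -0.060, Slit2 0.035, Robo4 0.17, Ntn1 -0.083, Ntn4 0.20, Ntng2 -0.26 and Unc5a -0.045. With the length trend removed they were Epha3 -0.035, Efna2 0.082, Robo2 -0.14 and Ntn1 -0.041. Efna2 was 0.065 with array weights, Slit2 0.034 with quantile normalization, Slit2 0.039 and Ntn4 0.050 without the 2 libraries of highest lung level, and Ntn1 -0.065 with the lung set as a batch and -0.0018 with voom. With each library left out Efna2 ranged from -0.22 to 0.14, Slit2 from -0.081 to 0.019, Ntn1 from -0.080 to 0.15 and Ntn4 from -0.28 to 0.078. The causes were not tested. Depth limits Efna4, Epha1 and Robo3, with at most 87 reads in a library.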
